A study of Homo sapiens with 30 samples.

Results

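The open chromatin described here is that of G401 cells carrying the control construct. G401 is an established cell line from a malignant rhabdoid tumour of the kidney, and it lacks SNF5, the SWI/SNF subunit encoded by SMARCB1. The cells carried a lentiviral, TET-inducible EGFP construct selected with G418, and were given doxycycline (1 μg/ml) for 24 h to switch EGFP on, so SNF5 was absent from every sample used. The sites were the ATAC-Seq peaks of the 3 EGFP samples on hg38 (chromosomes 1 to 22, X and Y), and peaks sharing at least 1 bp were merged into one site. This gave 19143 sites, of 40003 formed in the same way from all 9 ATAC-Seq samples of the series, and 3 of its 30 samples supplied them. Transcription was taken from the 3 PRO-Seq samples of the same EGFP cells and treatment. No source used here ties an ATAC-Seq sample to a PRO-Seq sample. The study calls its replicates biological, without saying that each was a separate culture.

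ATAC-Seq marks DNA that a transposase can reach. In most human cells the start sites of active genes form short accessible gaps in the nucleosome array, while enhancers lie further away and differ between cell types. SWI/SNF complexes slide and eject nucleosomes, and SNF5 is one of the subunits that anchors the complex to the nucleosome. PRO-Seq labels the 3′ ends of RNA being made, so its reads show engaged RNA polymerase, with a promoter-proximal peak where polymerase pauses after initiation.

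The peak lists were of unequal length and largely nested. EGFP-1 had 12482 peaks, EGFP-2 had 17815 and EGFP-3 had 9206. Of the peaks of EGFP-3, 86.0% lay in a site found in all 3 samples, against 63.4% for EGFP-1 and 43.0% for EGFP-2. A site seen in EGFP-2 alone was the most frequent kind after the shared sites, with 5882 sites, against 1124 in EGFP-1 alone and 256 in EGFP-3 alone. The peak lists hold no read counts. Read totals listed with the study were not used here, because the totals before duplicate removal are identical there for the ATAC-Seq and PRO-Seq samples, and the part of depth in the unequal lengths was not tested. In the PRO-Seq table, promoter-proximal counts summed to 518900, 2923648 and 2538465 and gene body counts to 34919279, 30177634 and 46957634 in EGFP-1, -2 and -3. PRO-Seq EGFP-1 thus had the fewest promoter-proximal counts. Over genes, its promoter-proximal levels had a Spearman correlation of 0.932 with each other sample, against 0.965 between EGFP-2 and -3. By gene body level, PRO-Seq EGFP-3 stood apart at some genes. Among 11074 protein-coding genes with at least 300 gene body counts in all, 5.01% had a gene body level in that sample at least 3-fold above or below both others, against 0.533% for EGFP-1 and 0.262% for EGFP-2.

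Sites found in all 3 samples were the largest class and sat at promoters. There were 7537 such sites, or 39.4% of all, with 4344 in 2 samples and 7262 in 1. Of the shared sites, 83.7% had their summit within 1 kb of an annotated transcript start (exact 95% binomial interval 82.8% to 84.5%), and 12.6% lay at least 5 kb from any start (11.8% to 13.3%). In sites found in 2 samples the promoter share was 55.1%, and in sites of 1 sample it was 39.6%, while the distal share was 35.3% and 47.2%. Read in each sample's own list, the promoter share was 73.5% in EGFP-1, 62.0% in EGFP-2 and 78.4% in EGFP-3, which is 71.3% ± 8.42 (SD, n = 3), and the distal share was 22.3% ± 6.58. The longest list had the lowest promoter share and the shortest list the highest. The binomial intervals cover counting error over sites only.

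**Figure D1:**
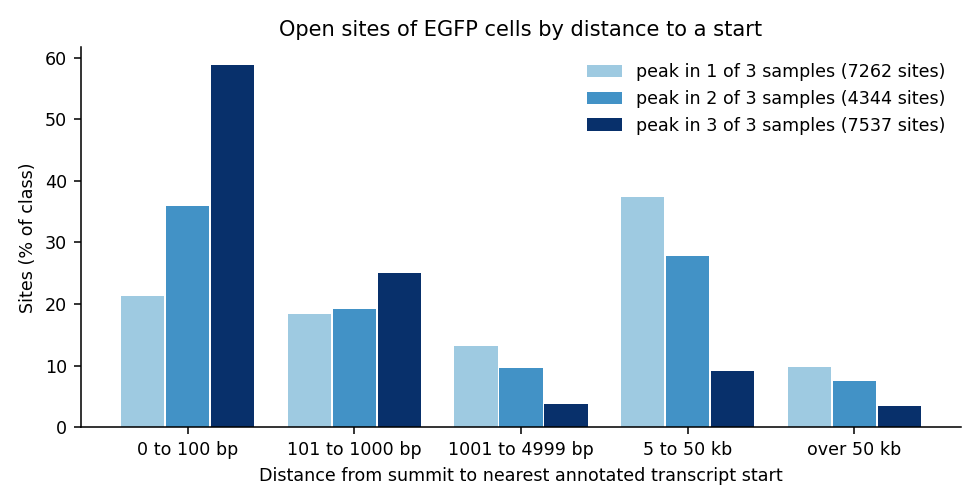
Open sites of the EGFP cells by distance from the summit to the nearest annotated transcript start (x axis, 5 ranges) as a percent of each class (y axis), with 1 bar for sites with a peak in 1, 2 or 3 of 3 samples. Of the sites found in all 3 samples, 58.7% lie within 100 bp of a start, against 21.2% of the sites of 1 sample.

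Shared sites were also wider and more enriched. Their median width was 467 bp (quartiles 352 to 609), against 269 bp in 2 samples and 177 bp in 1. Their median fold enrichment over the local background, averaged over the samples with a peak, was 6.98 (6.01 to 8.14), against 5.66 and 5.35. A site with peaks from more samples is wider in part by construction, since its width is the union of its peaks. Fold enrichment kept much of its order between samples over the 7537 shared sites, with a Spearman correlation of 0.753 between EGFP-1 and -2, 0.710 between EGFP-1 and -3 and 0.733 between EGFP-2 and -3. These are descriptions across sites, which share libraries and local base composition. The median coefficient of variation of the fold at a shared site was 11.4% over the 3 samples.

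**Figure D2:**
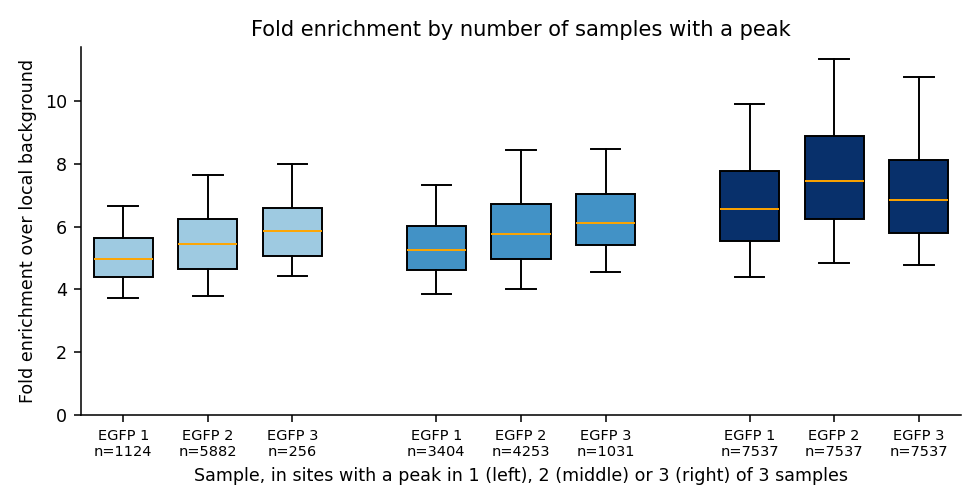
Fold enrichment over the local background (y axis) in each EGFP sample (x axis), for sites with a peak in 1, 2 or 3 of 3 samples; boxes are quartiles with the median, whiskers run from the 5th to the 95th percentile, and n is the number of sites. In each sample the median is highest in sites found in all 3, where the distributions still overlap those of the other classes.

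The summit of a shared promoter site lay just upstream of the start. Of 6308 such sites, 76.4% had the summit upstream, with a median position of -45 bp (quartiles -98 to -2), and 70.2% lay within 100 bp of the start. The nearest start belonged to a protein-coding gene at 84.8% of them and to a lncRNA at 14.1%. At 913 sites (14.5%) starts of 2 or more protein-coding genes, on both strands, lay within 1 kb. The order of the starts was not checked, so these need not all be divergent promoters. The 913 sites had a median width of 522 bp and a median fold of 7.27. At the 4847 sites with 1 protein-coding gene these were 489 bp and 6.98, and the quartiles of both groups overlapped. Distal shared sites were narrower, with a median of 289.5 bp against 491 bp at promoters, while their median fold was 6.98 against 7.01. Most distal sites lay outside genes. Of 946, 27.7% had the summit in an intron of a protein-coding gene, 2.33% in an exon of one and 55.4% outside annotated genes.

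The most enriched sites were not at ordinary genes. The highest mean fold was at chr3:93470299-93470841, with 24.5, 24.7 and 24.4 in EGFP-1, -2 and -3, and its nearest start, of PROS1, lay 415826 bp away. The site beside the mitochondrial pseudogene MTCYBP13 (chr17:22521276-22521661) followed with 23.2, 23.7 and 25.1. The site at the start of the lncRNA ENSG00000289474 on chromosome 2 had 21.9, 19.9 and 25.4. None of the 10 strongest sites lay within 1 kb of a start of a protein-coding gene. Of the 10 strongest sites at least 5 kb from a start, 8 were among these 10. Among the 50 strongest, 4 lay within 2 kb of an rRNA gene, 5 of a mitochondrial pseudogene and 1 of an snRNA gene. Apart from those, 16 were over 50 kb from any start, with the other 24 outside these classes. The nuclear genome holds many copies of ribosomal and mitochondrial sequence, and reads of near-identical copies cannot be told apart, so the fold at these sites may gather reads of several copies. Whether it does was not tested.

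The densest window lay on the short arm of chromosome 21. The window chr21:8400001-8500000 held 16 shared sites, the most of any 100 kb window, with 10 of them within 2 kb of an rRNA gene. The next, chr21:8200001-8300000, held 7, of which 4 were at rRNA genes. Windows at chr16:34500001-34600000, with 7 sites, and chr16:46300001-46400000, with 6, held no site within 2 kb of an rRNA gene. Other repeated sequence was not counted by window. The rRNA genes encode the precursor of the large ribosomal RNAs and lie in tandem arrays on the short arms of several chromosomes. The most crowded windows at ordinary genes were one on chromosome 19 with 6 sites around ZNF324, ZNF446 and ZNF584, and one on chromosome 1 with 5 sites around ZNF672 and ZNF692. A window on chromosome 3 with 5 sites around TM4SF1 and TM4SF18, genes of membrane proteins, was the first that was not a zinc finger locus.

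At starts of protein-coding genes the most enriched sites were a different set, listed after their values were seen. FAM72A led with 14.6, 21.3 and 16 in the 3 samples, but it has near-identical copies on the same chromosome, so its reads are uncertain. MSANTD4 had 13.6, 14.9 and 15.5, RIMOC1 12.3, 13.3 and 17.1, and ALG10B, a glucosyltransferase of N-glycan synthesis, 12.3, 15.4 and 14.5. SEL1L, part of the machinery that removes misfolded proteins from the endoplasmic reticulum, had 12.69, 14.95 and 13.03, and DIS3, a nuclease of the RNA exosome, 12.93, 13.12 and 14.01.

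The 10 widest sites were promoters in all but 1 case, and their enrichment was not the highest. The widest spanned 1767 bp at the paired starts of EOLA1 and EOLA1-DT, with a fold of 5.61, 7.26 and 6.29. The site at UBE2D3, a ubiquitin-conjugating enzyme, and UBE2D3-AS1 spanned 1651 bp with 5.25, 5.75 and 6.11, and that at SETD5 and THUMPD3-AS1 spanned 1558 bp with 5.91, 5.87 and 6.40. GOLIM4, a Golgi membrane protein, had 1473 bp, ARL6IP6 1471 bp, SP4, a GC-box-binding factor, 1458 bp, MBOAT7 1420 bp, MXI1, a MAX partner that opposes MYC, 1388 bp and GALNT7 1367 bp. Only the site near ZNF692-DT, of 1421 bp, was more than 1 kb from a start among these 10. Of the 10, the mean fold ran from 5.18 at MXI1 to 8.83 at GOLIM4, so width and enrichment ranked sites differently. EOLA1 and MBOAT7 are listed at 0 in both PRO-Seq regions.

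Among distal sites, those over 50 kb from any start and those at repeated genes were set aside for a further list. Of its 10 strongest sites, 4 had a protein-coding gene as the nearest start. A site 27032 bp upstream of NELL2 had 10.9, 17.0 and 13.3 in the 3 samples, and 1 promoter-proximal count was recorded for NELL2 over the 3 PRO-Seq samples, with gene body counts of 221, 185 and 145. A site 11539 bp upstream of BARX2, a homeobox gene, had 10.9, 14.1 and 13.9, and BARX2 had gene body counts of 1, 2 and 1. A site 28285 bp downstream of the start of ZNF648 had 10.54, 12.03 and 11.31, and ZNF648 had gene body counts of 5, 0 and 2. A site 14332 bp downstream of the start of MSGN1, a factor of presomitic mesoderm, had 9.49, 12.2 and 11.5. Nearness is not evidence of a link between site and gene. Shared distal sites were spread thinly, since the 946 sites had 745 different nearest protein-coding genes. Leaving out sites over 50 kb from a start of any gene type and those at repeated genes, CAMK1G and FAM110B had most, with 4 each. These lay 147875 to 392888 bp from CAMK1G starts and 118811 to 475300 bp from FAM110B starts. NEDD1, GPC5 and SPRY1, the last a feedback inhibitor of growth factor signalling, had 3 each, at 8764 to 469756 bp for SPRY1.

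Of 19856 protein-coding genes, 6742 had a peak summit within 1 kb of a start in all 3 samples, which is 34.0%, and 9477 had one in no sample, which is 47.7%. These genes are called open in all 3 samples and open in none below. Another 2013 genes were open in 2 samples and 1624 in 1. The number of genes open in a single sample was 8652, 10076 and 7148 in EGFP-1, -2 and -3. Of 18678 lncRNA genes, 10.2% were open in all 3 samples. Chromosomes differed, from 43.6% of genes on chromosome 13 and 42.9% on chromosome 2 to 22.7% on chromosome 17, 21.3% on X, 19.4% on chromosome 22 and 6.82% of the 44 genes on Y.

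Families of the protein synthesis and degradation machinery were open more often than the background, and several families of specialised tissues almost never. These families were chosen after the values were seen. Of 84 genes of cytosolic ribosomal proteins, 52.4% were open in all 3 samples, as were 53.8% of 78 genes of mitochondrial ribosomal proteins, 56.4% of 39 proteasome subunit genes and 60.7% of 56 genes of translation initiation factors. The 511 ZNF genes were at 35.0%, close to the background, and 74 histone genes were below it at 25.7%, although cells of every type use histones. Of 405 olfactory receptor genes, 403 were open in none and 2 in all 3. None of 94 keratin-associated protein genes, 51 clustered protocadherin genes, 40 beta-defensin genes or 10 genes of pregnancy-specific glycoproteins was open in all 3 samples. The last family had a median promoter-proximal level of 77.6 counts per 1000000 (CPM), here counts per 1000000 of all promoter-proximal counts of the table. It was thus not silent, though its members are near-identical and their reads are uncertain. The synthesis and degradation families had medians from 80.1 to 282 CPM. Over all matched genes, 62.2% of those between 50 and 100 CPM and 66.6% of those between 200 and 500 CPM were open in all 3. The other specialised families had a median of 0 CPM, a level at which 7.90% of all matched genes were open in all 3. Those medians cover only members in the PRO-Seq table. These were 78 of the olfactory receptor, 26 of the keratin-associated protein, 18 of the clustered protocadherin and 32 of the beta-defensin genes.

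Promoter sequence differed with openness. RefSeq promoter windows from 250 bases before to 50 after a start (GRCh38.p14) were available for 15238 of these genes. The 4566 windows overlapped by a peak in all 3 samples had a median GC content of 66.0% and a median of 28 CpG dinucleotides, against 58.0% and 10 in the 8110 windows overlapped in none. Openness did not follow GC evenly. With windows split into 5 equal classes by GC, the lowest class (up to 51.3%) was overlapped in all 3 samples in 5.12% of cases, the next to highest in 41.9% and the highest in 34.3%, where GC ran from 72.0% to 94.0%. Among genes with a mean promoter-proximal level of at least 20 CPM, the shares were 24.5% in the lowest class, 59.1% in the middle and 48.7% in the highest. Over the windows overlapped in all 3 samples, fold fell slightly with GC (Spearman -0.21, n = 4558 promoters). Base composition also enters library amplification and mapping, and its part in these shares was not tested.

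Short motifs were counted on both strands. The SP/KLF box GGGCGG was in 78.6% of windows overlapped in all 3 samples, in 43.5% of those overlapped in none and in 59.4% of all 15238. The ETS core CCGGAAG was in 24.0%, 6.61% and 14.5%, the CCAAT box in 46.7%, 32.4% and 36.6%, the NRF1 core GCATGCGC in 7.03%, 1.96% and 4.25%, and the YY1 core AAGATGGC in 7.01%, 1.65% and 3.98%. The E-box CACGTG, the MYC and MAX site, was in 11.04%, 7.03% and 8.91%. The TATA box TATAAA went the other way, with 3.55%, 14.5% and 9.56%, as did the AP-1 site TGANTCA with 2.89%, 8.05% and 5.71%. GC-rich motifs and GC content move together, so these shares are not separate observations, and a match is a description of letters, not of a bound factor.

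The 250 bases before the RefSeq start are shown as examples for 4 promoters with a peak in all 3 samples and 2 with none. Their full windows do not show the difference in CpG. The numbers were 15, 19, 16 and 31 in MSANTD4, RIMOC1, JUN and MSX1, and 29 and 25 in JUNB and SMARCB1. MSANTD4 and RIMOC1 were the most enriched protein-coding promoters after FAM72A, JUN and MSX1 stand for a stress-response and a developmental factor that were open, JUNB for a gene that was transcribed without a peak, and SMARCB1 for the gene whose product these cells lack. Capitals mark matches, on either strand, to the motifs named above.
MSANTD4 (GRCh38.p14 chr11:106022241-106022490, minus strand): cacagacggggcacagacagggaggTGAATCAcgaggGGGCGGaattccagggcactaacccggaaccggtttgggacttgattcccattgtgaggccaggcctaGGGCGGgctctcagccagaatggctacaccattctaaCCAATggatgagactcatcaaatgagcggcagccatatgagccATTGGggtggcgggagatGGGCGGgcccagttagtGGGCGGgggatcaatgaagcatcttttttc
RIMOC1 (GRCh38.p14 chr5:41904094-41904343, plus strand): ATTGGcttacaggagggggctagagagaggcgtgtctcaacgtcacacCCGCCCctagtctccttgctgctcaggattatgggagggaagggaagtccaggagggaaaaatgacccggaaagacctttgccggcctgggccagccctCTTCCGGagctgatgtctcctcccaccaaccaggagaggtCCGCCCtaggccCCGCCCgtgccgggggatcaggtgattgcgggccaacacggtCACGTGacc
JUN (GRCh38.p14 chr1:58784048-58784297, minus strand): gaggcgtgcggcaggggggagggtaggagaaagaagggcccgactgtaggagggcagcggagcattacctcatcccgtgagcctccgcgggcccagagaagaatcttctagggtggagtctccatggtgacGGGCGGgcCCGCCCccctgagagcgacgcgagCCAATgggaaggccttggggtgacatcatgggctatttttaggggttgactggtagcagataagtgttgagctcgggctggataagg
MSX1 (GRCh38.p14 chr4:4859415-4859664, plus strand): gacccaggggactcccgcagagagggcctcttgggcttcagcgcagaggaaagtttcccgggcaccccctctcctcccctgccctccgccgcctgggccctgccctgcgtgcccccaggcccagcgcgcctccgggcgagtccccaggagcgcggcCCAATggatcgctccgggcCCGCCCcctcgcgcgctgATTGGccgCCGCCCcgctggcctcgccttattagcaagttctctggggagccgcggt
JUNB (GRCh38.p14 chr19:12791236-12791485, plus strand): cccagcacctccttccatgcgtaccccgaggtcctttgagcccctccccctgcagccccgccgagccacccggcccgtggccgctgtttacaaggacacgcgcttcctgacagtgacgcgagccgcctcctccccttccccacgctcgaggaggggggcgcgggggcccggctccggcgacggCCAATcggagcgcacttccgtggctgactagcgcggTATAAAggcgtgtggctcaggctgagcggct
SMARCB1 (GRCh38.p14 chr22:23786716-23786965, plus strand): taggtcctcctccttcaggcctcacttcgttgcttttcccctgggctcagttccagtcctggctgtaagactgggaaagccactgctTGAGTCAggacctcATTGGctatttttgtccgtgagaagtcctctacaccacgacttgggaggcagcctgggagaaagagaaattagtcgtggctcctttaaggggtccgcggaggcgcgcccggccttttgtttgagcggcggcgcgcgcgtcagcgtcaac
The MSANTD4 stretch holds 4 SP/KLF boxes, 2 CCAAT boxes and 1 AP-1 site. That of RIMOC1 holds 3 SP/KLF boxes, 1 CCAAT box, 1 E-box and 1 ETS core. JUN and MSX1 have 2 SP/KLF boxes each, with 1 CCAAT box in JUN and 2 in MSX1. The JUNB stretch has no SP/KLF box but a TATA box and a CCAAT box, and that of SMARCB1 has a CCAAT box and an AP-1 site. The sequence shown for SMARCB1 is the reference, and was not read from these cells.

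SMARCB1 itself checked the cell line. It had no peak in any sample, 0 promoter-proximal counts in all 3 PRO-Seq samples and gene body counts of 4, 1 and 6. The blank stretch was much longer than the gene. No EGFP sample had a peak between chr22:23539865 and chr22:24247652, a gap of 708 kb that held 19 named protein-coding genes from IGLL1 to GGT5. They include CHCHD10, a mitochondrial protein, MIF, a cytokine, DDT, an enzyme related to MIF, and CABIN1, a calcineurin-binding protein. The 17 of these genes in the PRO-Seq table had 132 gene body counts and 2 promoter-proximal counts in all, and the highest, GGT5, had 47. The median protein-coding gene with any gene body count had 2385.

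The flanks differed from the gap. BCR, the first gene before it, had gene body counts of 8124, 5178 and 11322, though no peak at a start, and RAB36 beyond it was open in all 3 samples with a fold of 5.28, 5.68 and 6.29 and gene body counts of 1520, 920 and 638. SPECC1L, on the other side, was open with 7.34, 6.51 and 5.31 and had gene body counts of 10057, 8146 and 11611. Gaps with as many or more named genes and almost no gene body counts were found elsewhere at clusters of tissue-specific genes, such as 65 genes between OR4B1 and OR5AK2 with 28 counts and 43 between LCE3E and S100A7 with 29. Neither assay measures DNA copy number, so whether the DNA of this stretch is present was not tested.

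**Figure D3:**
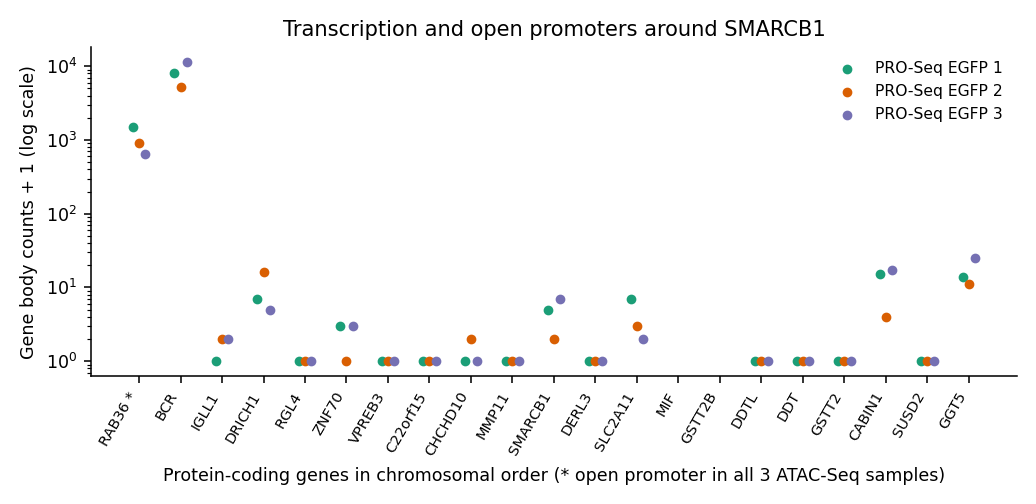
Gene body PRO-Seq counts plus 1 (y axis, log scale) in the 3 EGFP samples for SMARCB1 and its 10 nearest named protein-coding genes on each side, in chromosomal order (x axis); an asterisk marks an open promoter in all 3 ATAC-Seq samples, and MIF and GSTT2B have no entry in the PRO-Seq table. Counts drop from at least 5178 at BCR to at most 24 in any sample from IGLL1 to GGT5.

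Lineage regulators were open at few of their promoters. The lists below name factors and markers of tissues a rhabdoid cell might resemble, and each count stands against the 34.0% of all protein-coding genes. A gene can be closed by this measure because its peak was too weak for the q-value used, so being open in none means only that no peak was listed.

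Among 30 kidney development factors, 6 were open in all 3 samples, 3 in 1 sample and 21 in none. Those open included EYA1, FOXD1, GATA3, FOXC1 and MEIS2. EYA1, a phosphatase and cofactor of homeobox factors, had a fold of 5.998, 7.59 and 6.59 but 0 promoter-proximal counts in all 3 samples. FOXD1, a factor of the kidney stroma, had 5.66, 5.15 and 5.57, with 19, 208 and 279 promoter-proximal counts. MEIS2, a homeodomain factor, had the weakest sites of the 6, at 3.68, 3.44 and 4.47, and the most gene body reads, at 36634, 35644 and 60578. LMX1B, a factor of podocytes and limb patterning, showed the opposite, with no peak and gene body counts of 16454, 11779 and 25697. PAX2, an early nephric factor, had a peak in EGFP-2 alone and gene body counts of 877, 732 and 7823, with PRO-Seq EGFP-3 far above the others. Of 14 kidney epithelium and podocyte genes, which mark differentiated nephrons, none was open in all 3, and 11 were open in none. SLC12A1, the sodium, potassium and chloride cotransporter, came nearest with peaks of 7.60 and 6.97 in EGFP-1 and -2 and no promoter-proximal counts.

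Mesenchymal and limb factors gave 4 of 30 open in all 3 samples, with 19 open in none. TBX3, a factor of limb patterning, had 5.88, 7.18 and 6.32 with 3, 14 and 4 promoter-proximal counts. ZEB1, a repressor of epithelial genes, had 4.97, 4.94 and 5.39 with gene body counts of 8054, 7391 and 13136, and MSX1 had 4.27, 5.40 and 4.22 with 3689, 5304 and 7358. TWIST2 and MEOX1 had no peak although their promoter-proximal levels were 183 ± 112 and 159 ± 39.5 CPM (SD, n = 3). SNAI1, another repressor of epithelial genes, reached 614 ± 168 CPM with a peak in EGFP-2 only. Among 18 mesenchymal structural genes only VIM, the intermediate filament vimentin, was open in all 3, with 4.85, 5.78 and 5.53. COL1A1, a fibrillar collagen chain, had a single peak in EGFP-2 of 3.66 at 252 ± 58.2 CPM, and COL3A1 had no peak at 89.7 ± 24.6 CPM.

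Neural and neural crest factors had 4 of 30 open in all 3 samples and 25 in none. TFAP2A, a neural crest factor, had the strongest site at 6.75, 8.74 and 8.14, with 2, 2 and 0 promoter-proximal counts but 7698, 9733 and 1898 gene body counts. LHX2 had 4.99, 5.44 and 4.73, and the neighbours DLX1 and DLX2, homeobox genes of forebrain and jaw, had 4.18, 3.71 and 4.96 and 4.16, 4.95 and 4.75. DLX1 gene body counts were 325, 529 and 4813, so PRO-Seq EGFP-3 was again apart. OTX2, a forebrain factor, had no peak and gene body counts of 6582, 10925 and 13757. None of the 10 skeletal and cardiac muscle factors had a peak in any sample, and none had 10 promoter-proximal counts over the 3 samples. FOXA3 was the single endoderm factor of 12 open in all 3, at a site shared with the start of SYMPK, a factor of mRNA 3′ processing. ETV2 was the single blood and endothelial factor of 16, and GRHL1 the single gene of 20 in the list of epithelial junctions and keratins.

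Oncofetal genes and the AP-1 family were open in all 3 samples in 38.5% and 41.7% of cases, near the 34.0% of all genes. These shares depended on the peak threshold. Of 13 oncofetal genes, which are used in embryos and tumours, 5 were open in all 3 samples and 3 in none. With peaks of a −log10 q of at least 10, 1 was open, as was 1 of 12 AP-1 factors, while 3644 of all 19856 genes were open. With equal numbers of top peaks the counts were 1 oncofetal gene and 4 AP-1 factors, and 5694 of all genes. PLAG1, a growth-promoting zinc finger factor, had 10.1, 8.79 and 9.78 at a site shared with the start of CHCHD7, GPC3, a cell-surface proteoglycan, 5.51, 5.70 and 7.5, and the RNA-binding proteins IGF2BP1 and IGF2BP3 5.22, 4.74 and 4.79 and 3.63, 5.51 and 3.39. SALL4, a factor of embryonic stem cells that is also on the list of pluripotency genes, had 3.81, 4.68 and 5.18 at 473 ± 181 CPM. HMGA2, a chromatin protein of embryonic tissue, had gene body counts of 87742, 81344 and 107970 and peaks in EGFP-1 and -2 only. Of 14 pluripotency and germline factors, KLF4 and SALL4 were open in all 3, and 10 were open in none. Of 12 AP-1 factors, which dimerise at TGANTCA sites, JUN, ATF3, FOSL1, FOSL2 and JUND were open in all 3 and 4 were open in none. JUN had 6.44, 7.02 and 8.43 at 159 ± 11.4 CPM. JUNB had no peak within 1 kb of a start at 615 ± 112 CPM, and the nearest summit in any sample lay 1424 bp away.

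SWI/SNF subunit genes were open at about the background rate, with 11 of 28 in all 3 samples, 7 in 2, 2 in 1 and 8 in none. Without EGFP-3, 18 of the 28 were open in both other samples, against 8393 of all 19856 genes, so the reading rests on that sample. ACTL6A, an actin-related subunit, had 7.15, 9.44 and 11.7, SS18 7.43, 9.16 and 6.75, PBRM1, the bromodomain subunit of PBAF, 7.46, 7.95 and 5.48 at a site shared with GNL3, and ARID1B, a DNA-binding subunit, 7.13, 6.52 and 7.21. SMARCA4, the ATPase, had peaks in EGFP-1 and -2 of 4.96 and 5.50, as did the core subunit SMARCC1 with 6.28 and 6.65. DPF2 and SMARCE1 had none, at 121 ± 17.8 and 47.8 ± 3.99 CPM.

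Many HOX genes had promoter-proximal counts with few listed sites in their clusters. Of 39 HOX genes, 2 were open in all 3 samples, HOXA4 with 5.39, 7.08 and 6.51 and HOXC13 with 6.24, 7.52 and 5.80, and 33 were open in none. Yet 29 of the 35 in the PRO-Seq table had at least 10 promoter-proximal counts over the 3 samples, a low threshold, and 24 of these 29 were open in none. Of all 17645 genes matched to that table, 2631 had at least 10 such counts and were open in none. They were 33.4% of the 7866 matched genes open in none. HOXA9 had 94, 398 and 147 promoter-proximal counts and a peak in EGFP-2 only, and HOXC4 had 86, 193 and 122 and none. HOX genes are ordered along each cluster as they are used along the body axis. The 4 clusters, from 98.2 kb (HOXD) to 200.2 kb (HOXB), held 3 sites of any kind at HOXA, 2 at HOXB, 3 at HOXC and 2 at HOXD, and 1 site in all 3 samples at each but HOXB, which had none.

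**Figure D4:**
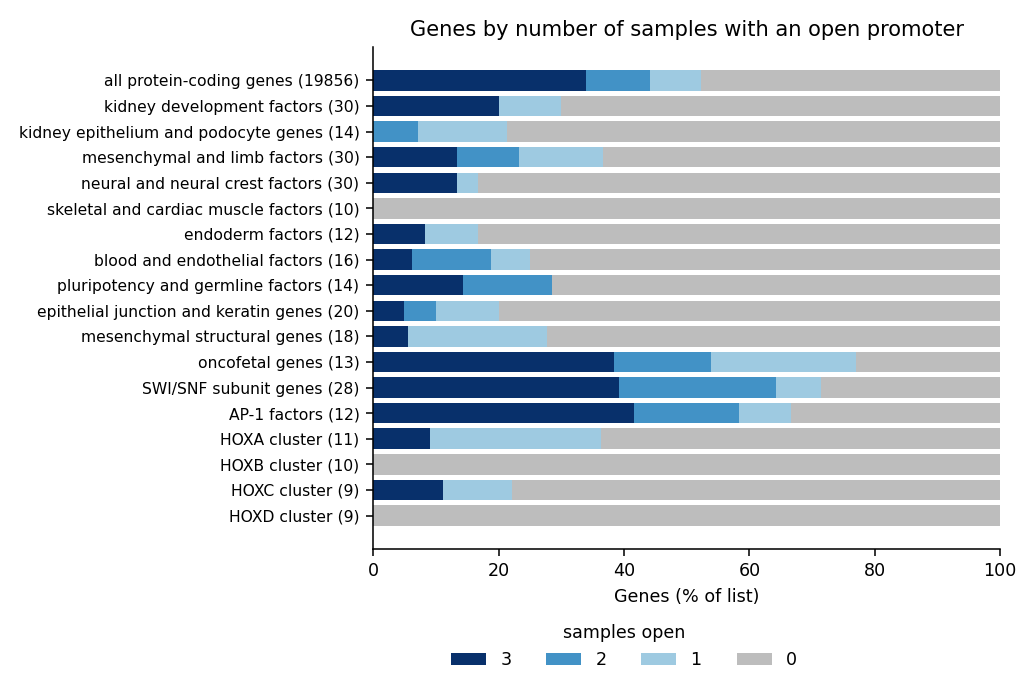
Share of each gene list (x axis, percent; number of genes in brackets) whose promoter was open in 3, 2, 1 or 0 of the EGFP samples, with all protein-coding genes on top. Of all genes 34.0% were open in all 3 samples, while the kidney epithelium, muscle, HOXB and HOXD lists have no such gene and the oncofetal, SWI/SNF and AP-1 lists are the longest dark bars.

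Open promoters were mostly transcribed. Of the 19856 genes, 17645 were matched to the PRO-Seq table by symbol. The median promoter-proximal level of the 6376 matched genes open in all 3 samples was 55.9, 41.04 and 45.3 CPM in PRO-Seq EGFP-1, -2 and -3, which is 47.4 ± 7.64 (SD, n = 3). It was 36.0 ± 9.12 in genes open in 2 samples, 21.8 ± 7.96 in genes open in 1 and 0 in each PRO-Seq sample in the 7866 genes open in none. In that last class the median was at 0 because 43.3% of its genes had no promoter-proximal count, against 5.03% of the genes open in all 3. At least 10 counts over the 3 samples were present at 91.7% of genes open in all 3 and 33.4% of genes open in none. The gene body level, in counts per 1000000 of all gene body counts and per kb of gene, had medians of 1.67 ± 0.0451 and 0.0103 ± 0.00296. The order of the 4 classes by promoter-proximal level was the same in each PRO-Seq sample, EGFP-3 included. In each class but that open in none, the median was highest in EGFP-1, the sample with the fewest promoter-proximal counts. By gene body level, genes open in 2 samples were above those open in all 3 in EGFP-1 (1.72 against 1.70) and EGFP-3 (1.67 against 1.62) and below them in EGFP-2 (1.55 against 1.68).

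**Figure D5:**
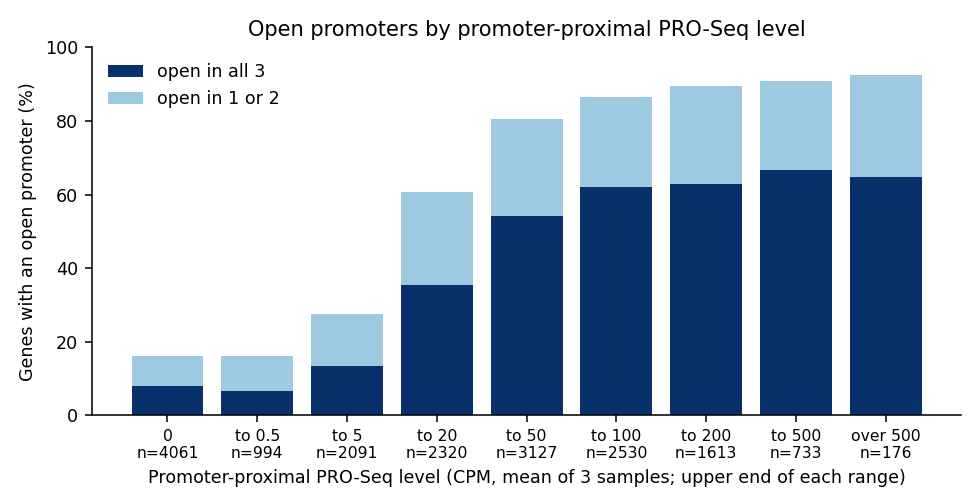
Percent of genes with an open promoter (y axis) in all 3 samples (dark) or in 1 or 2 (light) for ranges of the mean promoter-proximal PRO-Seq level (x axis, CPM, labelled by the upper end; n is the number of genes). The dark bars run from 7.90% at a level of 0 and 6.54% up to 0.5 CPM to 62.2% between 50 and 100 CPM and stay between 62.2% and 66.6% above it.

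Above 0.5 CPM the open share was higher at higher promoter-proximal levels up to 50 to 100 CPM and differed little beyond that. It was 7.90% of genes without a promoter-proximal count, 6.54% of those up to 0.5 CPM and 13.4% between 0.5 and 5 CPM. Between 5 and 20 CPM, 35.5% of genes were open in all 3 samples, between 20 and 50 CPM 54.3%, between 50 and 100 CPM 62.2%, and above 500 CPM 64.8%. Among genes open in all 3 samples the mean fold had little relation to the promoter-proximal level, with Spearman correlations of 0.0411, 0.106 and 0.103 in the 3 PRO-Seq samples, and a weak inverse one to the gene body level, at -0.11, -0.076 and -0.15 (n = 6376 genes, as a description). With these genes split into 5 equal classes by fold, the class with the lowest fold had a median of 39.3 ± 9.61 CPM and that with the highest 53.2 ± 4.46, higher in each of the 3 PRO-Seq samples, while the median gene body level went from 2.02 ± 0.153 to 1.40 ± 0.0885.

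Genes that departed from this relation went in both directions. Without a peak in any sample, 2631 genes had at least 10 promoter-proximal counts. RPL41, a ribosomal protein gene, led with 2377, 46890 and 25517 counts, and the nearest summit was 1405 bp away. RIT1, a RAS-related GTPase, had 588, 1218 and 1882, SDC4, a syndecan, 115, 2910 and 1619, and PPP1R15A, a stress-induced phosphatase subunit, 168, 2426 and 1602. NSRP1, a splicing factor, had 241, 1945 and 1705 counts, with gene body counts of 7261, 6191 and 8144 and no summit within 174007 bp. THOC6 and FBXW9 were in the same 10 genes, but their promoter-proximal CPM varied between samples with an SD close to or above the mean, at 601 ± 580 and 615 ± 640.

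In the other direction, 528 genes open in all 3 samples had fewer than 10 promoter-proximal counts. A site near 2 starts was counted for both genes, and in 5 of the 10 most enriched cases the same peaks lay at a neighbour with more counts. ENPP3, an ectonucleotidase, had a fold of 12.6, 12.7 and 12.6 and no count, but shared its site with MED23, a Mediator subunit with 331 counts over the 3 samples. SOX6, a factor of cartilage and muscle fibre type, had 9.71, 13.1 and 11.6 with 0, 2 and 0 counts, and shared its site with C11orf58, which had 957. RAG2, a recombinase of lymphocytes, had 10.4, 14.2 and 10.7 and shared its site with IFTAP, which had 135, and NIPAL1 likewise with NFXL1, which had 924. RAB3C, a GTPase of secretory vesicles, shared its site with no other protein-coding gene, and had 9.81, 12.1 and 14.4 with 0, 0 and 2 counts. Over all 528 genes, 144 shared a site with another protein-coding gene (27.3%), and 64 with one of at least 10 counts (12.1%), against 25.96% and 22.2% of the other 5848 matched genes open in all 3 samples. Some zeros may also be failed estimates. Of the 528 genes, 208 had at least 100 gene body counts, as did SCOC with 510, 691 and 899, and 179 genes open in all 3 samples were listed at 0 in both regions of all 3 samples. The last group holds EOLA1, MBOAT7 and PPIP5K2, and MBOAT7 and PPIP5K2 encode enzymes that most cells use.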

How the data were processed

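ATAC-Seq peak lists of the 3 EGFP samples and PRO-Seq counts of the 3 EGFP samples were used as deposited. For ATAC-Seq, cutadapt, Bowtie2 (hg38) and MACS2 were run by the authors, with a q-value of 0.001 in each sample. The deposited lists give a fold ratio over local background, −log10 p and −log10 q per peak. For PRO-Seq, the authors counted reads on hg19 with NRSA. The deposited counts cover the fullest 50 bp window among the first 500 bp around a start, and the gene body beginning 1 kb downstream. The deposited gene body signal is a density in reads per bp.

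Peaks sharing 1 bp were merged. The summit of a site was that of its strongest peak. The reference set was 211129 transcript starts of GENCODE 44, at their listed GRCh38 positions. A gene was open in a sample with a summit within 1 kb of any start, so 1 site can serve neighbouring genes. The assays were joined by gene symbol, 16172 directly and 1473 through an older symbol or synonym, because builds differ. Counts were scaled to counts per 1000000 of their region. Merging, distances and openness were checked on simulated peaks. Named sites and genes were the 10 strongest and widest sites, the 10 strongest distal sites, the 10 densest windows, list members, the 10 most discordant genes each way and SMARCB1 with its 10 neighbours on each side. Members and lists were chosen with earlier results of these data known. The values of 2 list members are not reported here, although the list counts hold them. No test was run, since there is 1 group. Python 3 scripts used NumPy, pandas, SciPy and Matplotlib. Peak lists and counts of the other constructs entered only the total of sites, and ChIP-Seq files were not used.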

Additional observations from a re-analysis of the deposited data

How the results depend on the processing

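Sites in all 3 samples numbered 3651, sites in at least 2 samples 6303, genes open in all 3 samples 3644 and list members open in all 3 samples 14, of 42, when only peaks with a −log10 q of at least 10 were kept. Taking the 9208 most significant peaks of each sample left 6048, 8546, 5694 and 29. Leaving out each ATAC-Seq sample in turn and asking for both others gave 7690 to 10859 sites, against 7537 in all 3 and 11881 in at least 2, with the value of 7690 reached without EGFP-2. It gave a promoter share of 76.1% to 83.4% and a distal share of 12.9% to 18.2%, 6769 to 8393 open genes and 43 to 58 list members. The promoter share ran from 76.1% to 89.5% and the distal share from 8.24% to 18.96% over all alternatives. Each differed from the main share of the shared sites, 83.7% or 12.6%, by less than 1 SD. That SD, 8.42 or 6.58, was taken over the samples' own lists. Leaving out sites at repeated genes and on the short arm of chromosome 21, chosen after the data were seen, gave 84.2% and 12.1%. The difference in median promoter-proximal level between genes open in all 3 samples and in none, 47.4 CPM, was 36.4 with median-of-ratios scaling, 28.3 among genes with a mean of at least 10 counts and 1.66 counts per 1000000 and kb when the gene body density was used. It had the same direction under every alternative run. Of 153 counts for single lists, 24 moved by over 1.5 times. No list count exceeded 18 genes, and the muscle, HOXB and HOXD lists stayed at 0. No paired analysis was possible because the results come from no test and there is 1 group. The peak lists hold no read counts, which limits any statement that a site is closed.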
